A study of Mus musculus with 2 samples.

Results

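Lysosomal hydrolases, their activators, membrane proteins and the proton pump that acidifies the organelle were followed in cells sorted as macrophages from mouse alveolar bone. The set held 37 genes, taken by their symbols from the 27998 genes of each deposited table. They comprised 10 proteases, 7 glycosidases and sulfatases, 8 genes of lipid and thioester hydrolysis, their activators and sterol transport, 7 membrane proteins and 5 subunits of the vacuolar ATPase.

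Droplet RNA sequencing was performed on F4/80+CD11b+ cells sorted from the alveolar bone of male C57/B6 J mice, 8 weeks of age. The control library came from mice without force. The library of orthodontic tooth movement (OTM) came from mice whose left first molar had been pulled towards the incisors by a nickel-titanium (NiTi) coil spring for 7 days. No transgene or deletion is named for the mice, and 20 mice were split between the groups for sequencing, with the number in each library not given in the sources used here. Each condition had 1 library, so no test between conditions was possible. The tables held 2863 control and 2058 OTM barcodes, of which 2444 and 1255 passed the filter on genes per UMI and on mitochondrial UMIs. The kept cells carried 10728381 and 7787159 unique molecular identifiers (UMIs), with a median of 3676 UMIs per control cell and 6053 per OTM cell. The 2 libraries shared 6 cell barcodes.

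The labels call the cells alveolar macrophages. Clustering of each library alone gave 12 control and 7 OTM clusters, and their markers put 52.6% of the control cells and 61.5% of the OTM cells in a monocyte/macrophage-like class. Another 38.3% and 34.8% were neutrophil-like, with the neutrophil alarmin S100a8 at 162685 counts per 1000000 UMIs (CPM) in control and 107544 CPM in OTM. F4/80 itself (Adgre1) stood at 92.1 and 116 CPM in the monocyte/macrophage-like class and at 18.8 and 49.4 CPM in the neutrophil-like class. Small clusters of granulocyte progenitor-like cells (77 control and 46 OTM cells) expressed Elane and Mpo. The OTM cluster also had Fcnb and Camp among its leading genes, with S100a8 at 108534 CPM against 25244 CPM in the control cluster. One control cluster of 145 cells, led by Fabp4, Fcgr4 and Treml4 but with S100a8 at 73604 CPM, carried monocyte and neutrophil markers together and was set aside. The lysosomal genes were left out of the genes used for clustering.

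Lysosomes are acidic organelles in which phagocytes digest engulfed and autophagic material. Their hydrolases are made in the endoplasmic reticulum, many reach the organelle by the mannose 6-phosphate route, and several cathepsins are also released by phagocytes into the matrix. Transcription factors of the TFEB family bind CACGTG E-boxes in the promoters of many of these genes, which can be induced together.

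The stretches before the transcription start of 4 members with such E-boxes and of 2 members without are shown. The E-box was not used to choose the genes, and most members examined lacked it. Each sequence is the 100 bases before the RefSeq start on GRCm38.p6, on the gene's own strand, with each CACGTG in capitals. For Mcoln1, Ctsd, Ctsa and Arsb the GENCODE annotation starts the gene further upstream, so part or all of these stretches lies inside the GENCODE gene. The positions are chr8:13159061-13159160 (+) for Lamp1, chr8:3500419-3500518 (+) for Mcoln1, chr7:142387828-142387927 (-) for Ctsd, chr2:164833673-164833772 (+) for Ctsa, chr13:93771579-93771678 (+) for Arsb and chr3:95526686-95526785 (+) for Ctss.
Lamp1: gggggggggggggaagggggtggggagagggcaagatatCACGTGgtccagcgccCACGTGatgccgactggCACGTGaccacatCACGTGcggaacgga
Mcoln1: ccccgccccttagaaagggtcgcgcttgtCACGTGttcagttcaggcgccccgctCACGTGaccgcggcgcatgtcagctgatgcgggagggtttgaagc
Ctsd: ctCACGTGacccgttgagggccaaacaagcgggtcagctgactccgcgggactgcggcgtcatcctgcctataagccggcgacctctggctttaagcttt
Ctsa: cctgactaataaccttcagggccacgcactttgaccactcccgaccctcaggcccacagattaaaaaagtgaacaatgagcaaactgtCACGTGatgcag
Arsb: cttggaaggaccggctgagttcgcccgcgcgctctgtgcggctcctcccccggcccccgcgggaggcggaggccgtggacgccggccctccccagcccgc
Ctss: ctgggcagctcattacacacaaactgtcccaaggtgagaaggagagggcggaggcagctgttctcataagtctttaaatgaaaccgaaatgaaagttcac

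Lamp1, the major glycoprotein of the lysosomal membrane, had 4 E-boxes in this stretch, and Mcoln1, the calcium channel TRPML1, had 2. RefSeq promoter windows, from 250 bases before to 50 bases after the start, were held for 32 of the 37 genes. Of these, 10 had CACGTG (31.2%), namely Ctsd, Ctsl, Ctsa, Lgmn, Gla, Glb1, Lamp1, Mcoln1, Atp6v1a and Atp6v0d1. Among all 27025 genes with such a window the share was 8.09%. The sequence reads the same on both strands, and its extension to TCACGTG or CACGTGA was found in 9 of the 32 members and in 4.29% of all genes. Ctsb, Ctsh, Asah1, Npc1 and Atp6v1b2 had no entry. Neither Arsb nor Ctss had the letters in the whole window.

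Every one of the 37 genes was detected in the monocyte/macrophage-like and in the neutrophil-like cells of each library. Because UMIs were read from the 3′ end of transcripts, the levels below were not divided by gene length. In control monocyte/macrophage-like cells the 5 genes with the most UMIs were Psap, Ctss, Npc2, Ctsc and Ctsb, which made up 58.5% of all lysosomal UMIs. Psap, the precursor of the saposins that activate sphingolipid hydrolases, stood at 2515 CPM in control and 1940 CPM in OTM. Ctss, a cysteine protease that trims the invariant chain of MHC class II, stood at 1993 and 2382 CPM. Npc2, the soluble carrier that hands cholesterol to Npc1, stood at 1787 and 1805 CPM. Psap was first and Ctss second in control, and that order was turned in OTM. Ctsc, which activates granule serine proteases, followed at 654 and 913 CPM, and Ctsb, an abundant cysteine protease, at 599.8 and 599.7 CPM. At the other end stood Mcoln1 (6.93 and 6.12 CPM), the beta-galactosidase Glb1 (7.40 and 5.40 CPM) and the proteolipid subunit Atp6v0c (3.15 and 0.720 CPM). The reads of Atp6v0c can be split with its annotated pseudogenes, so its level is uncertain.

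The 37 genes together took a larger share of UMIs in monocyte/macrophage-like than in neutrophil-like cells. In control the share was 1.29% of 6350741 UMIs (95% Poisson interval 1.28 to 1.30) against 0.437% of 3246531 UMIs (0.430 to 0.444). In OTM it was 1.40% of 5552454 UMIs (1.39 to 1.41) against 0.671% of 1923217 UMIs (0.660 to 0.683). These intervals and all others below cover counting error only, not the variation between mice or libraries. Among single clusters, as the stacked plot of shares shows, the highest share in control was 1.73% in cluster 8, a monocyte-like cluster led by the interferon-responsive genes Irf7 and Ly6a, followed by 1.52% in the C1q-positive macrophage-like cluster 11. In OTM the highest was 1.72% in the MHC class II-high cluster 4. Cycling monocyte-like cells stood lower at 0.983% in control and 1.05% in OTM, and the lowest share in either library was the 0.280% of control cluster 9, neutrophil-like cells led by the early granule genes Fcnb and Camp.

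**Figure D1:**
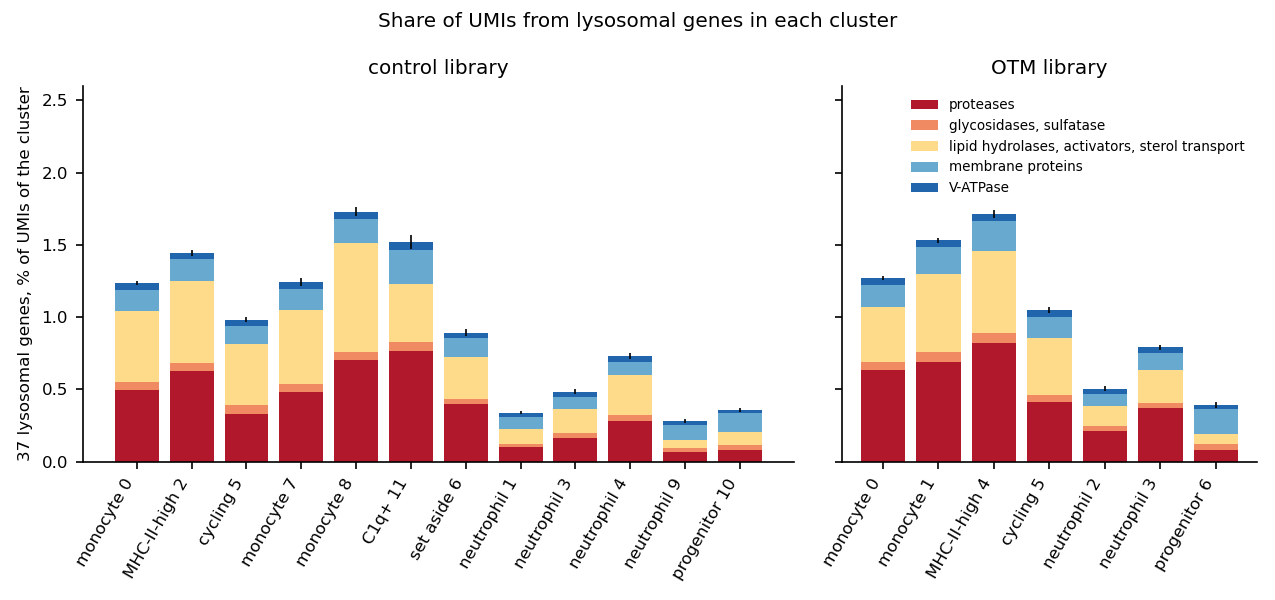
The share of each cluster's UMIs that came from the 37 lysosomal genes is stacked by role, in percent, for the 12 control and 7 OTM clusters, with the 95% Poisson interval of the total. The monocyte/macrophage-like clusters lie between 0.98% and 1.73% and the neutrophil-like clusters between 0.28% and 0.79%.

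The difference between the classes was spread unevenly over the roles. Of 36 members with at least 50 UMIs over both classes in control, 22 (61.1%) were at least 2-fold higher in monocyte/macrophage-like cells, where 35.3% of all genes counted were. In OTM 17 of 34 were, against 24.3% of all genes. Only Cd63 was at least 2-fold lower in that class, in each library, against 6.03% and 5.62% of all genes. By role, 8 of 10 proteases, 7 of 8 genes of lipid hydrolysis and sterol transport, 4 of 7 glycosidases and sulfatases, 3 of 7 membrane proteins and none of the 4 counted ATPase subunits were at least 2-fold higher in control. The differences were largest in control for Ctss, which was 6.49-fold higher in monocyte/macrophage-like cells (interval 6.08 to 6.93), and for Lgmn, an asparaginyl endopeptidase that processes other cathepsins, which was 5.55-fold higher (4.47 to 6.98). In OTM 8 of 10 proteases, 4 of 8 genes of lipid hydrolysis and sterol transport, 2 of 6 glycosidases and sulfatases, 3 of 6 membrane proteins and none of 4 ATPase subunits were at least 2-fold higher. The leading ratios there were 3.18 for Npc2 (2.99 to 3.39) and 3.17 for Lgmn (2.71 to 3.72), and that of Ctss was 2.66 (2.53 to 2.80). The aspartic protease Ctsd differed by less than the counting error in control (309.1 against 308.6 CPM) and was higher in neutrophil-like cells in OTM (516 against 382 CPM). Atp6v0d1, a subunit of the membrane sector of the pump, stood at 134 and 120 CPM in the 2 classes of control cells.

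Cd63, a tetraspanin of late endosomes and of primary granules, was distributed differently from the rest. Its level was 309 CPM in control neutrophil-like cells against 74.6 CPM in monocyte/macrophage-like cells, and 129 against 27.9 CPM in OTM. It was highest in the progenitor-like cells, at 958 CPM in control and 1214 CPM in OTM, and reached 686 CPM in the early granule cluster 9 of control. Among control monocyte/macrophage-like clusters it ranged from 16.3 CPM in cycling cells to 935 CPM in the C1q-positive cluster. In the heat map of levels its row is brightest in the progenitor-like, early granule and C1q-positive columns.

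**Figure D2:**
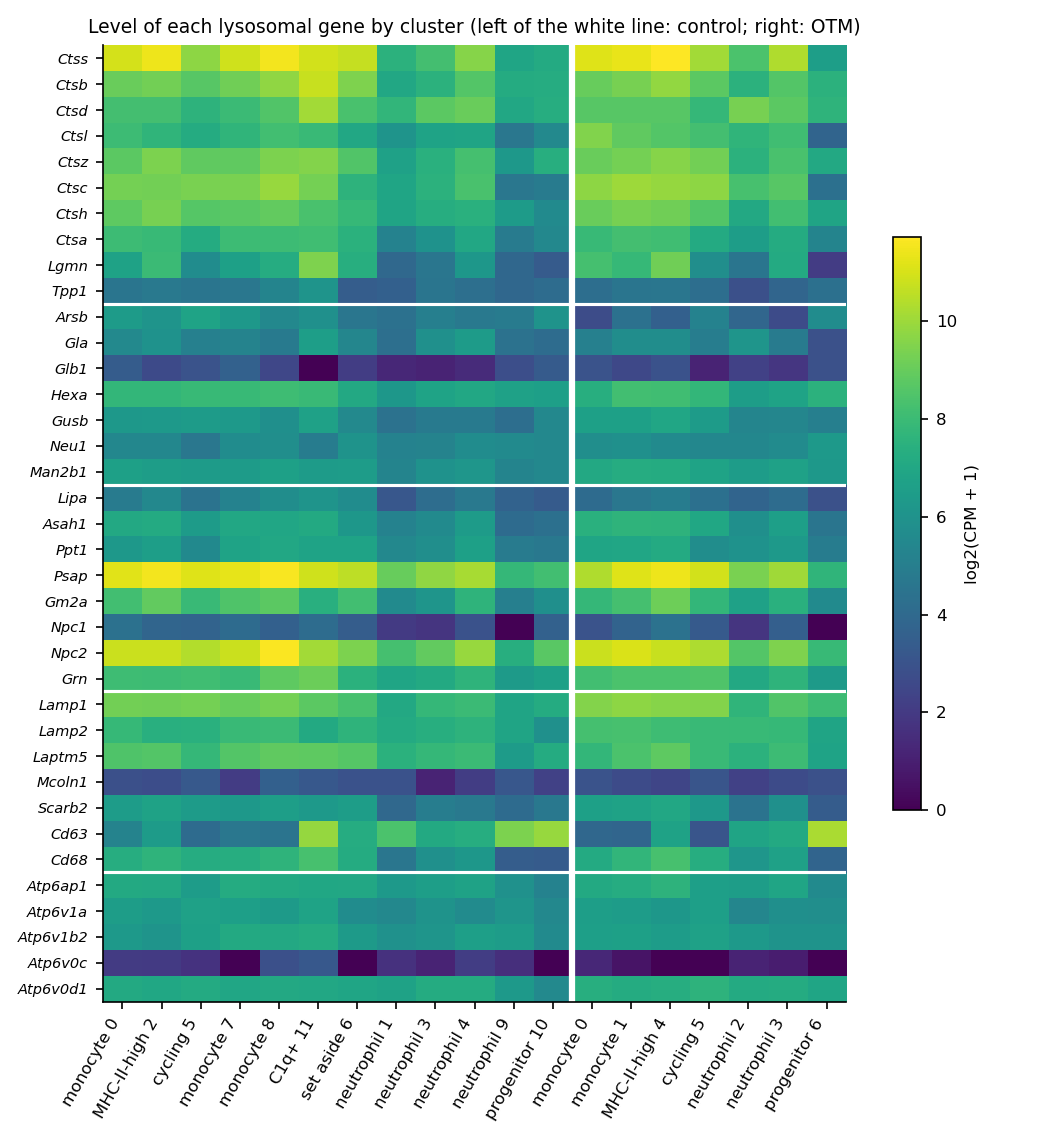
Each row is 1 of the 37 genes, grouped by role between white lines, and each column 1 cluster. Colour gives log2(CPM + 1), and the vertical white line parts the 12 control clusters from the 7 OTM clusters. Psap, Ctss and Npc2 are brightest in the monocyte/macrophage-like columns, and Cd63 in the progenitor-like and C1q-positive columns.

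Lysosomal genes also varied among the monocyte/macrophage-like clusters of 1 library. The C1q-positive cluster of control, 49 cells that also expressed Ctsk at 144 CPM, held the highest level of any control cluster for 13 of the 36 genes with at least 50 UMIs in that library (36.1%, against 17.6% of all 7562 genes counted). Among them were Ctsb (1701 CPM against 600 CPM in the class), Ctsd (1099 against 309 CPM), Lgmn (692 against 152 CPM), the scavenger receptor family member Cd68 (313 against 174 CPM) and the acid lipase Lipa (65.9 against 34.3 CPM). Control cluster 8 held the highest level for 12 more (33.3%, against 7.92% of all genes), including Psap (3117 CPM), Npc2 (3219 CPM) and Ctss (2963 CPM). In OTM the MHC class II-high cluster, in which C1qa was found at 271 CPM, held the highest level for 15 of 34 genes (44.1%, against 15.5% of all 6424 genes counted), including Ctss (3369 CPM), Lgmn (573 CPM) and Ctsb (894 CPM). Hexa, the alpha subunit of beta-hexosaminidase, was even across the control clusters of this class, from 214 to 267 CPM.

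Between conditions, the summed share of lysosomal UMIs in monocyte/macrophage-like cells was 1.08-fold higher in OTM (interval 1.07 to 1.10). That small excess fell to 0.978-fold when every cell with at least 200 genes and at most 5% mitochondrial UMIs was kept. Its direction therefore depended on the filter. Of 36 members with at least 50 UMIs, 2 were at least 1.5-fold higher in OTM, Ctsl and Lgmn, and 3 were at least 1.5-fold lower, Arsb, Cd63 and Lipa. These are 5.56% and 8.33% of the members counted, against 6.13% and 16.4% of the 7694 genes counted in this class. At this scaling the share of members past the fold was therefore no higher than that of all genes. With at least 200 UMIs the shares were 6.06% and 9.09% of 33 members, against 6.11% and 10.6% of 4339 genes. With at least 50 UMIs the median log2 ratio was 0.15 over the members and -0.15 over all genes counted. Scaling by TMM factors, which moved the median of all genes to 0.01, gave 7 members higher (19.4%, against 9.45% of all genes) and 2 lower (5.56%, against 11%). The median depth was 4294 UMIs per control and 7203 per OTM cell, and the median mitochondrial share was 1.36% and 1.11%. The 10 monocyte/macrophage markers, all detected and led by Cd14 (4229 and 8003 CPM), took 1.06% of the UMIs in control and 1.53% in OTM. The 6 erythroid markers took 0.0736% and 0.00938%, with the beta-globin gene Hbb-bs at 308 and 53.5 CPM over the class and at 820 and 44.2 CPM in cycling cells. Of 5 mesenchymal markers 4 were detected in each library, Pdgfra being at 0, and they took 0.00146% of the control UMIs, led by Sparc (10.9 CPM), and 9.01e-05% of the OTM UMIs. The part of depth, mitochondrial share and these markers in the ratios was not tested.

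**Figure D3:**
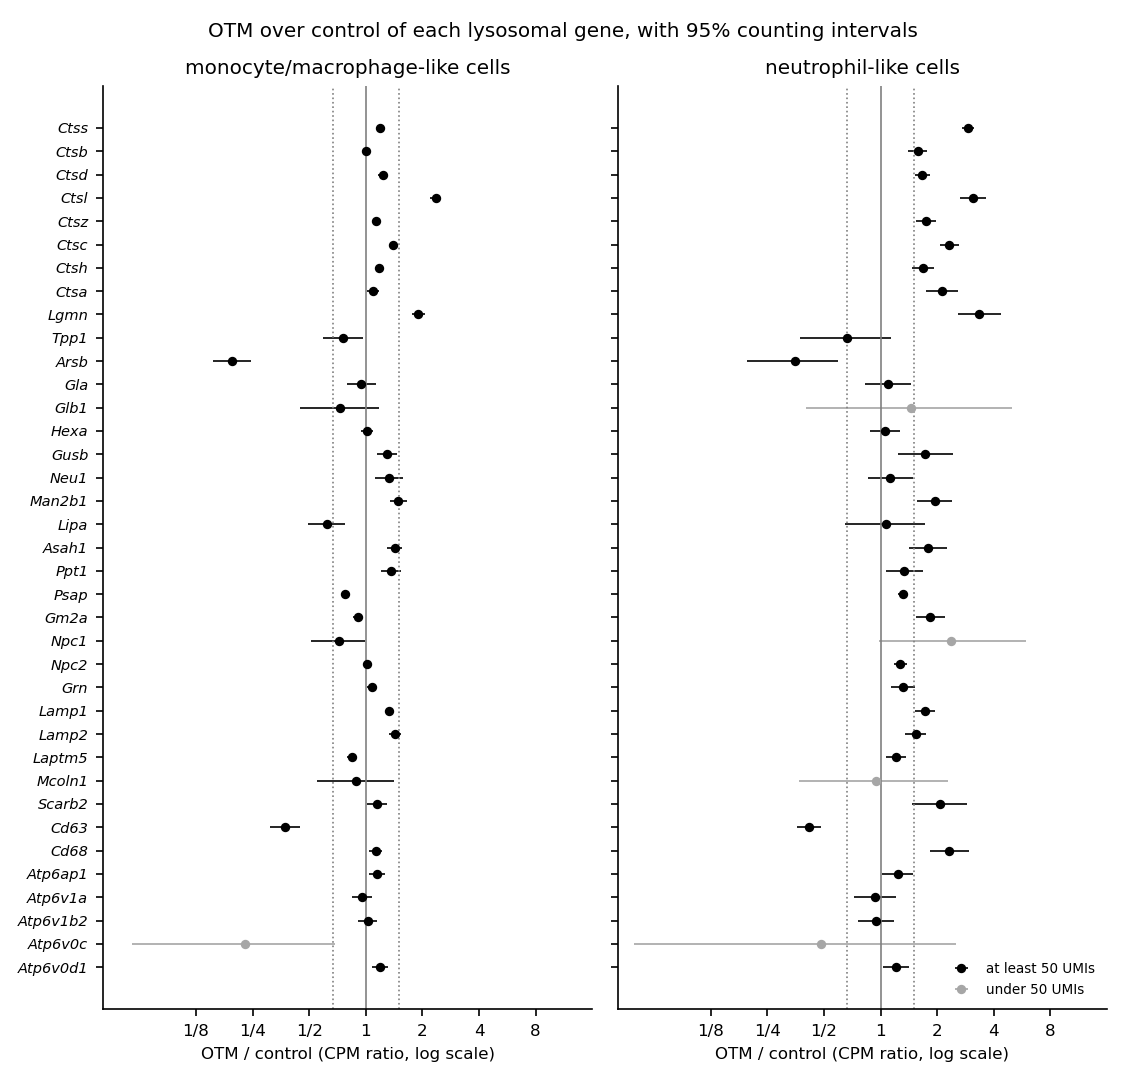
The ratio of CPM, OTM over control, is given on a log scale for each gene in monocyte/macrophage-like (left) and neutrophil-like cells (right), with exact 95% counting intervals. Dotted lines mark 1.5-fold in either direction. Arsb and Cd63 lie left of the dotted line in both classes, and most proteases lie right of it in neutrophil-like cells.

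Arsb, arylsulfatase B, removes sulfate from N-acetylgalactosamine 4-sulfate in dermatan and chondroitin sulfate. The gene (ENSMUSG00000042082) lies at chr13:93771630-93943016 on the plus strand of GRCm38. In monocyte/macrophage-like cells it was found at 79.4 CPM in control (504 UMIs) and at 15.5 CPM in OTM (86 UMIs). This was a 5.12-fold lower level, with a ratio of 0.195 (interval 0.153 to 0.246) and a log2 ratio of -2.35, or -2.20 relative to the median of all genes. Arsb was singled out with this fall already known, so its values are a description. Under 14 alternative settings the ratio stayed between 0.162 and 0.217. Those that alter only the minimum number of UMIs could not change it.

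The fall of Arsb was present in each monocyte-like subclass found in both libraries. In the core monocyte-like cells (control clusters 0, 7 and 8 and OTM clusters 0 and 1) it fell from 75.6 to 12.4 CPM, a ratio of 0.164 (0.118 to 0.224). In MHC class II-high cells it fell from 64.9 to 11.2 CPM (ratio 0.172, 0.080 to 0.332), and in cycling cells from 109 to 35.4 CPM (ratio 0.326, 0.209 to 0.491). The 6 control clusters of the class ranged from 43.9 CPM in cluster 8 to 109 CPM in cycling cells. The 4 OTM clusters ranged from 5.51 CPM in cluster 0 to 35.4 CPM in cycling cells, so the ranges of the class did not overlap. The control cluster that was set aside, outside the class, had 23.3 CPM (12.8 to 39.2), within the OTM range. Cycling cells held the highest level of the class in each library. In neutrophil-like cells Arsb stood at 25.3 CPM in control (82 UMIs) and 8.84 CPM in OTM (17 UMIs), a ratio of 0.350 (0.195 to 0.595). Progenitor-like cells had 64.0 CPM in control (interval 44.3 to 89.4) and 51.4 CPM in OTM (29.4 to 83.4), a difference within the counting error. These clusters were unlike, since only the OTM one had Fcnb and Camp among its leading genes. In control those genes led neutrophil-like cluster 9, where Arsb stood at 28.1 CPM.

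The same difference was seen as a share of cells. With each cell thinned to 2000 UMIs, 14.4% of 1251 control monocyte/macrophage-like cells (interval 12.5 to 16.5) and 2.33% of 772 OTM cells (1.39 to 3.66) kept an Arsb UMI, and 35 shallower control cells were left out. Without thinning the shares were 28.8% and 9.33%. In neutrophil-like cells, whose median depths were 2722 and 3307 UMIs, the thinned shares were 2.99% of 804 control and 0.686% of 437 OTM cells. Within the OTM library the level was 1.75-fold higher in monocyte/macrophage-like than in neutrophil-like cells (1.03 to 3.15), and it was 35.4 CPM in cycling cells (23.5 to 51.1) against 5.51 CPM in cluster 0 (2.75 to 9.86). How much of the remaining OTM level was free RNA in the droplets was not tested. The plot of levels by cluster shows all OTM monocyte clusters below the control clusters of the class, but not all of them below the cluster set aside.

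**Figure D4:**
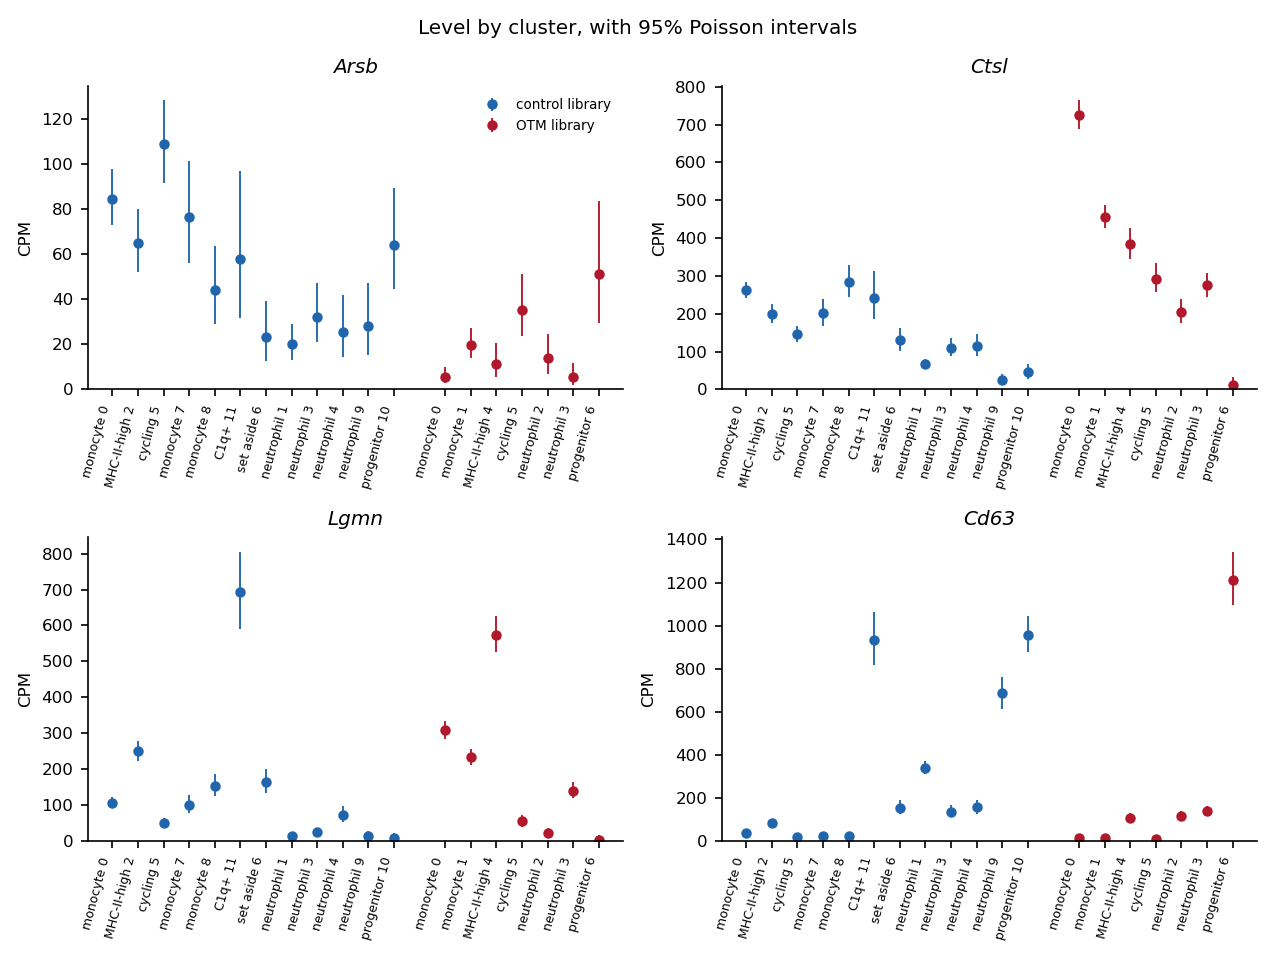
Levels of Arsb, Ctsl, Lgmn and Cd63 in CPM (y axis, from 0) are drawn for every control and OTM cluster (x axis) with 95% Poisson intervals. Arsb is lower and Ctsl higher in every OTM monocyte/macrophage-like cluster than in every control cluster of that class, whereas the Cd63 levels depend mostly on the cluster.

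None of the other 6 glycosidases passed 1.5-fold in monocyte/macrophage-like cells, where 6.13% of all genes counted were higher and 16.4% lower. Their ratios lay between 0.730 for Glb1, with 77 UMIs in all, and 1.49 for the alpha-mannosidase Man2b1 (92.9 and 138 CPM, interval 1.34 to 1.66). The sialidase Neu1 stood at 40.2 and 53.3 CPM and the beta-glucuronidase Gusb at 77.6 and 101 CPM. Gla, which cleaves terminal alpha-galactose, stood at 45.2 and 42.7 CPM (0.792 to 1.13). Hexa was at 229 and 231 CPM.

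Of the 10 proteases, 8 had a ratio above 1 in monocyte/macrophage-like cells, as did 36% of all genes counted, and 2 (20%) passed 1.5-fold, against 6.13% of all genes. Ctsl, a cysteine protease that also acts on the invariant chain, rose from 221 to 518 CPM, a ratio of 2.35 (2.20 to 2.50). It stood at 725 CPM in OTM cluster 0, led by Saa3 and Chil3, and at 284 CPM in the highest control cluster of the class. At 2000 UMIs per cell, 29.9% of control and 57.0% of OTM cells kept a Ctsl UMI, against 11.2% and 21.7% of neutrophil-like cells. Lgmn rose from 152 to 290 CPM, a ratio of 1.90 (1.76 to 2.06), and it did so from 114 to 272 CPM in core cells and from 249 to 573 CPM in MHC class II-high cells. In cycling cells its levels were 50.4 CPM in control and 54.3 CPM in OTM. Ctsc was 1.40-fold and Ctss 1.20-fold higher, Ctsd 1.24-fold, and Ctsh, Ctsz and the protective protein Ctsa 1.17-fold, 1.13-fold and 1.09-fold. Ctsb had a ratio of 1.00 (0.954 to 1.05). Tpp1, a tripeptidyl peptidase, was found at 26.6 and 20.2 CPM.

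Among genes of lipid hydrolysis and sterol transport the ratios pointed both ways. Lipa, which frees cholesterol and fatty acids from esters, fell from 34.3 to 21.3 CPM (ratio 0.619, 0.491 to 0.778). With TMM factors its ratio was 0.688, short of 1.5-fold. It stood at 33.8 and 19.9 CPM in core cells (0.436 to 0.793) and at 42.8 and 29.1 CPM in MHC class II-high cells, where the interval (0.410 to 1.10) included 1, and it had fewer than 50 UMIs in cycling cells. Npc1, the membrane sterol transporter, was within 1.5-fold over the class (15.6 and 11.2 CPM) but fell from 17.6 to 9.57 CPM in core cells (0.351 to 0.831). Psap had a ratio of 0.771 over the class (0.753 to 0.790), with its lowest level among these clusters in OTM cluster 0, at 1278 CPM. The acid ceramidase Asah1 stood at 124 and 176 CPM (ratio 1.42) and the palmitoyl-protein thioesterase Ppt1 at 83.3 and 113 CPM (1.36). The GM2 activator Gm2a, progranulin (Grn) and Npc2 had ratios of 0.910, 1.08 and 1.01. Summed, this role took 0.519% of the UMIs in control and 0.469% in OTM, whereas the proteases took 0.520% and 0.651%.

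Among the membrane proteins, Lamp2, a glycoprotein of the lysosomal membrane, stood at 206 and 295 CPM (ratio 1.43). Lamp1 stood at 588 and 784 CPM (1.33). Laptm5, a haematopoietic transmembrane protein, was at 351 and 296 CPM, and Scarb2, an integral membrane protein of lysosomes, at 90.2 and 104 CPM. Cd63 fell from 74.6 to 27.9 CPM over the class (ratio 0.374, 0.310 to 0.449). Of its 474 control UMIs, 227 came from the C1q-positive cluster, which had no counterpart cluster in OTM. Within subclasses Cd63 stood at 31.8 CPM in control and 13.7 CPM in OTM core cells, but at 85.6 and 107 CPM in MHC class II-high cells. With every cell of at least 200 genes and at most 5% mitochondrial UMIs kept, the ratio over the class was 0.789, short of 1.5-fold. The 4 counted ATPase subunits had ratios from 0.954 (Atp6v1a) to 1.19 (Atp6v0d1).

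Within subclasses, the counts over the members were 2 higher and 4 lower of 35 in core cells, against 7.66% and 17.2% of all genes counted. They were 9 higher and 1 lower of 33 in MHC class II-high cells, against 11.7% and 8.09%, and 2 higher and 1 lower of 30 in cycling cells, against 8.39% and 8.91%. Ctsl was higher in all 3 subclasses. The OTM MHC class II-high cluster also carried C1qa and Fcgr4 (271 and 145 CPM, against 32.5 and 24.4 CPM in the control cluster), and the part of this mixture in the 9 genes was not tested.

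In neutrophil-like cells the summed lysosomal share was 1.54-fold higher in OTM, a log2 ratio of 0.62. Of 33 members counted, 17 were at least 1.5-fold higher (51.5%, against 16.6% of the 4821 genes counted) and 2, Arsb and Cd63, were lower (6.06%, against 13.6%). With every cell of at least 200 genes and at most 5% mitochondrial UMIs kept, 5 members were higher (15.2%, against 7.34% of all genes). The share ratio was then 1.05. At a clustering resolution of 1.0 there were 6 (18.2%, against 10.6%) and the share ratio was 1.17. Higher were 9 of 10 proteases, with Lgmn at 27.4 and 91.5 CPM, Ctsl at 79.5 and 246 CPM, Ctss at 307 and 896 CPM and Ctsc at 157 and 365 CPM. Also higher were Ctsa, Ctsz, Ctsh, Ctsd and Ctsb (ratios 2.12, 1.75, 1.69, 1.67 and 1.57), and Tpp1 was the exception. The remaining 8 were Cd68, Scarb2, Lamp1, Lamp2, Man2b1, Gusb, Gm2a and Asah1, with ratios from 1.54 to 2.32. No ATPase subunit passed 1.5-fold. Ctsl and Lgmn (higher) and Arsb and Cd63 (lower) passed it in the same direction in both classes. The share of all genes that did so was not counted. Of the 1004 control UMIs of Cd63 in neutrophil-like cells, 342 came from the 82 cells of cluster 9 and 460 from cluster 1. In control clusters 3 and 4 its level was 137 and 156 CPM, beside 115 and 139 CPM in the OTM clusters. Its ratio over the class was 0.417, or 0.535 without cluster 9. With every cell of at least 200 genes and at most 5% mitochondrial UMIs kept it was 0.765, short of 1.5-fold. Cells led by Fcnb and Camp were counted as neutrophil-like in control (cluster 9). In OTM these genes were among the leading genes of the progenitor-like cluster 6, where Cd63 stood at 1214 CPM. The class therefore held unlike cells in the libraries.

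Markers moved with this result. The 12 neutrophil markers took 34.8% of the UMIs of control and 22.7% of OTM neutrophil-like cells. The 10 monocyte/macrophage markers, all of them detected, took 0.625% and 1.33%. Most of that share was Cd14 alone, at 3632 CPM in control and 9508 CPM in OTM. In monocyte/macrophage-like cells Cd14 stood at 4229 and 8003 CPM. With totals free of the neutrophil markers the summed share was 1.30-fold higher in OTM, and 10 members were higher (30.3%, against 8.46% of all genes). Csf1r, the receptor that defines the macrophage lineage, stood at 39.7 and 76.4 CPM, and the monocyte chemokine receptor Ccr2 at 78.9 and 163 CPM. OTM cluster 3, 210 cells led by Ltf and Ly6g, had Csf1r at 104 CPM and Ccr2 at 235 CPM. The other OTM cluster, of 227 cells, had 37.6 and 62.6 CPM. Control cluster 4, 169 cells led by interferon-responsive genes such as Ifit3, had 91.8 and 173 CPM. Ctss stood at 773 CPM there and at 1295 CPM in OTM cluster 3, and Lgmn at 73.1 and 140 CPM. The lysosomal shares of these clusters were 0.732% and 0.790%. Without OTM cluster 3, but with control cluster 4 kept, the summed share was 1.16-fold higher. Cells with high Csf1r were thus left out of OTM alone. Of the 33 members counted then, 9 were higher (27.3%, against 14.2% of all genes), 8 of them among the former 17, and 3 were lower, Tpp1 besides Arsb and Cd63 (9.09%, against 20.8%). Ctss then had a ratio of 1.09, Ctsb 0.965, Ctsh 0.998 and Lgmn 0.822, as the paired plot of ratios shows. Ctsl (2.59, 2.11 to 3.16), Ctsd (2.05, 1.84 to 2.29), Ctsc (1.99, 1.70 to 2.32), Cd68 (1.85) and Man2b1 (1.76) stayed past 1.5-fold. The ratio of Arsb, with 11 OTM UMIs left, was 0.546, and its interval (0.262 to 1.03) then included 1. Whether the higher Ctss, Lgmn and Csf1r of cluster 3 came from the neutrophils themselves or from monocyte RNA in the same droplets was not tested.

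**Figure D5:**
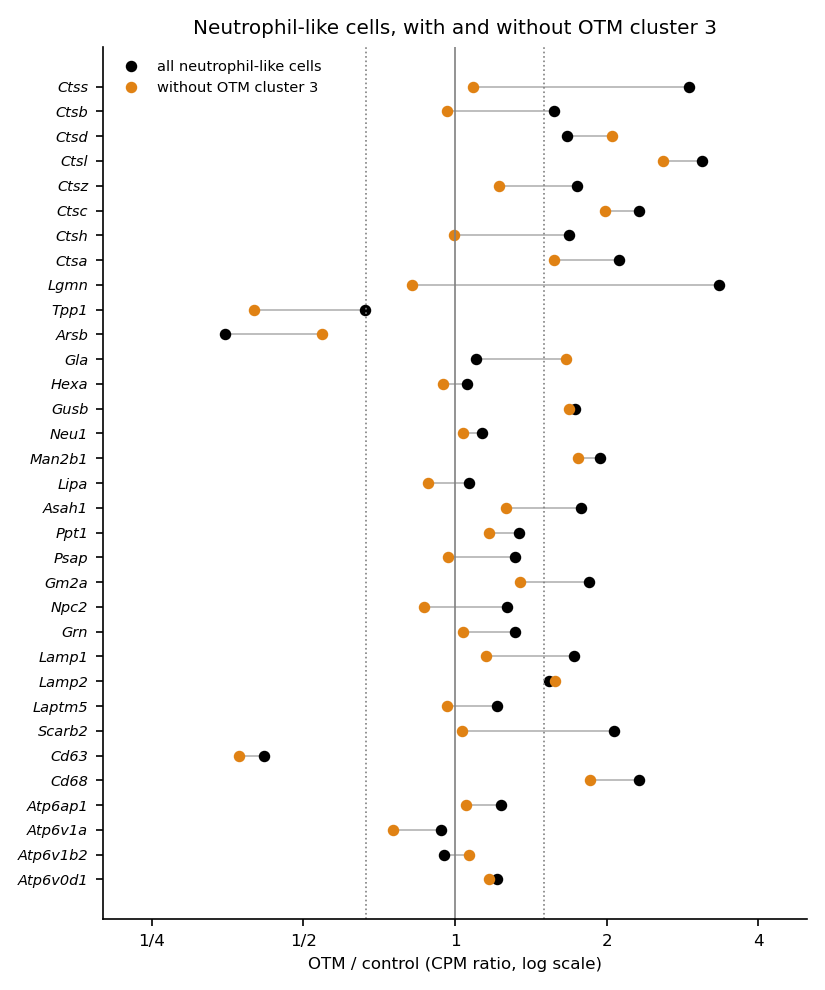
For the 33 counted genes the ratio of CPM, OTM over control, in neutrophil-like cells is drawn on a log scale with all cells (black) and without the 210 cells of OTM cluster 3 (orange). Lgmn, Ctss and Scarb2 move furthest towards or past 1, whereas Ctsl, Ctsd, Ctsc and Cd63 stay past the dotted 1.5-fold lines.

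The clusters led by late granulocyte genes can be set side by side, control cluster 3 (263 cells) and OTM cluster 2 (227 cells), both with Stfa2l1, Gm5483, BC100530 and Retnlg among their leading genes. Their lysosomal shares were 0.484% and 0.505%. Ctsl stood at 109 and 205 CPM, Ctsc at 181 and 313 CPM and Ctsd at 430 and 634 CPM. Ctss (293 and 333 CPM), Ctsb (181 and 183 CPM) and Lgmn (23.6 and 22.5 CPM) were close to each other. Arsb stood at 32.3 and 13.8 CPM and Cd63 at 137 and 115 CPM.

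A wider list of 57 further lysosome genes gave the surroundings of these changes. In monocyte/macrophage-like cells 46 of them were counted, of which 1 was at least 1.5-fold higher, the sialic acid exporter Slc17a5 (4.57 and 8.46 CPM), and 3 were lower (2.17% and 6.52%, against 6.13% and 16.4% of all genes counted). The lower ones were the iduronate sulfatase Ids (22.0 and 10.6 CPM), the aspartylglucosaminidase Aga (21.1 and 13.9 CPM) and the phospholipase Pla2g15 (10.4 and 6.84 CPM). The median log2 ratio of the list was -0.07. In neutrophil-like cells 7 of 26 were higher (26.9%, against 16.6% of all genes counted) and none lower (against 13.6%). Among the higher ones were the acid phosphatase Acp5, the fucosidase Fuca1 and Pld4, with ratios from 1.91 to 2.12. The part of OTM cluster 3 and of the marker shares given above in this count was not tested.

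Of 9 genes of enzyme sorting and lysosomal transcription, 8 were counted in monocyte/macrophage-like cells, and 1 was at least 1.5-fold lower (12.5%, against 16.4% of all genes counted). That gene was Gnptab, a subunit of the phosphotransferase that marks hydrolases for the mannose 6-phosphate route, at 9.92 and 6.30 CPM. The small mannose 6-phosphate receptor M6pr was at 118 and 108 CPM. Tfeb stood at 15.3 and 11.5 CPM, Tfe3 at 22.4 and 21.8 CPM and Mitf at 10.5 and 7.38 CPM. Members with CACGTG in the promoter window had a median log2 ratio of 0.18 (10 genes) in this class, and members without it 0.17 (21 genes).

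Inhibitors of the cathepsins were listed as well. Cystatin C (Cst3) is secreted and was the most abundant of them in monocyte/macrophage-like cells. There it stood at 3393 CPM in control and 2453 CPM in OTM (ratio 0.723), within 1.5-fold. The cytosolic inhibitor Cstb stood at 783 and 695 CPM. In neutrophil-like cells 5 of the 8 inhibitors counted were higher (62.5%, against 16.6% of all genes counted), all of them stefin A family genes. BC100530 rose from 890 to 4235 CPM, Gm5483 from 904 to 2912 CPM, Stfa2l1 from 292 to 847 CPM, Stfa2 from 74.2 to 601 CPM and Stfa3 from 96.4 to 275 CPM. Clusters with such genes among their leading genes held 263 of 936 control cells (cluster 3) and 227 of 437 OTM cells (cluster 2). The part of this difference in the rise was not tested. The same 5 genes, of 7 counted, were higher in monocyte/macrophage-like cells (71.4%, against 6.13% of all genes counted). There BC100530 stood at 38.9 CPM in control and 124 CPM in OTM. In core cells 1 of 5 inhibitors counted was higher and 1 lower (20% each, against 7.66% and 17.2% of all genes counted). In MHC class II-high cells 3 of 5 were higher (60%, against 11.7%) and none lower (against 8.09%). The stefin A family genes are near-identical copies, so counts may be split among them, and at such levels free neutrophil RNA cannot be told apart from expression.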

How the data were processed

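Per the labels, single-cell 3′ libraries (v2 chemistry) were made from the sorted cells. Cell Ranger 3.0.0 with the mm10 reference gave the counts of UMIs per gene and barcode that the authors deposited, not normalized. The deposited tables held 14620877 control and 16500733 OTM UMIs over all barcodes, and their barcodes were fewer than the cells the study describes. Barcodes under 200 genes per 1000 UMIs or above 5% mitochondrial UMIs were dropped, a literal reading of the methods that removed 419 control and 803 OTM barcodes of higher median depth (8395 and 9717 UMIs). Clusters were found within each library by Seurat 5.3.0 in R 4.3.3 (12 and 8 principal components, 20 neighbours, resolution 0.6, seed 42), with regression on UMI number and mitochondrial share and without the lysosomal genes. Doublets were not removed.

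Clusters were named by rule. A cluster with at least 2 progenitor markers among its 10 leading genes (in 25% of cells, at 50 CPM or more) was progenitor-like. Otherwise the higher mean z-score of log2 levels (10 CPM added) decided between neutrophil and monocyte/macrophage, and a cluster whose leading genes went against this was set aside. Subclasses needed 3 markers. The naming thresholds were set after seeing the clusters.

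UMIs were summed over the cells of a class and given as CPM. Ratios had exact conditional binomial, and shares of cells Clopper-Pearson, 95% intervals. Log2 ratios had 0.5 UMIs added. A gene was counted from 50 UMIs over both libraries (or classes), and called at 1.5-fold between libraries and 2-fold between classes. No p-value was computed. Arsb, the 5 most abundant members, every member past 1.5-fold and, of the other lists, at most 5 genes each way were named, and the others by role. Some genes were named after their values were seen. Some genes of the wider lists are not reported here. Members, lists and markers were chosen with earlier results of these data known. Calculations used scipy 1.17.1, pandas 2.3.3 and numpy 2.4.6 in Python 3.11.15, Scrublet in scanpy 1.11.5 and TMM factors from edgeR 4.0.16, and the ratio step was checked on simulated data. Gene positions were from GENCODE on GRCm38.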

Additional observations from a re-analysis of the deposited data

How the results depend on the processing

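No paired analysis was possible because each condition had 1 library. The monocyte/macrophage-like share ratio of 1.08 was 0.978 with at least 200 genes per cell, 1.11 without regression, 1.21 with TMM factors, 1.05 without hemoglobin, ribosomal protein and mitochondrial genes in the totals, 1.07 as a mean over cells, 1.07 without cycling clusters and 1.11 with the cluster that had been set aside, an alternative chosen after seeing the data. The 2 members at least 1.5-fold higher in that class were 7 with TMM factors (19.4%, against 9.45% of all genes) and 2 or 3 under the other alternatives. The 3 lower were 5 when only core and cycling monocyte-like cells were kept (13.9%, against 18.7%). Under the others they were 2 to 4, against 10.6% to 20% of all genes. Arsb, Ctsl and Lgmn passed 1.5-fold under all 14 alternatives. Lipa passed under all but TMM factors (0.688) and Cd63 under all but at least 200 genes per cell (0.789). The alternatives that alter only the minimum number of UMIs, 20 or 200, could not change the ratio of a gene. The neutrophil-like share ratio of 1.54 was 1.05 with at least 200 genes per cell, 1.77 at resolution 0.3, 1.17 at resolution 1.0, 2.02 without regression, 1.45 without the 5% of cells with the highest Scrublet scores, 1.48 with TMM factors, 1.58 with the reduced totals and 1.40 as a mean over cells. Alternatives chosen after seeing the data gave 1.16 without the OTM cluster highest in Csf1r, with all control clusters kept. They gave 1.44 without the control cluster led by Fcnb and Camp and 1.30 with totals free of neutrophil markers. The 17 higher members were 5 with at least 200 genes per cell (15.2%, against 7.34% of all genes), 6 at resolution 1.0 (18.2%, against 10.6%), 9 without the cluster highest in Csf1r (27.3%, against 14.2%) and 10 with totals free of neutrophil markers (30.3%, against 8.46%). Under the others they were 15 to 21, the 21 without regression (70.0%, against 33.7%). The 2 lower were 1 without regression (3.33%, against 11.3% of all genes) and 1 with at least 200 UMIs (3.57%, against 8.79%). Arsb had too few UMIs in this class to be counted under these 2 alternatives. It passed 1.5-fold under the 12 in which it was counted. Under the others the lower members were 2 or 3, against 10.9% to 24.3% of all genes. With at least 200 genes per cell the neutrophil-like ratios of Ctsb, Gusb and Gm2a turned to 0.979, 0.897 and 0.893, and without the cluster highest in Csf1r those of Ctsb, Ctsh and Lgmn turned to 0.965, 0.998 and 0.822. The cause was not tested. Members with few UMIs, such as Glb1 and Mcoln1, had wide counting intervals, and 1 library per condition leaves the variation between animals unknown.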
